A study of Mus musculus with 8 samples.

Results

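Macrophages of the mouse colon that carried Cd4 messenger RNA are described here. Of the 96721 barcodes with at least 400 genes and under 20% mitochondrial UMIs in 8 libraries, 2428 were members. They were chosen by their measured UMIs (unique molecular identifiers, each 1 captured transcript): at least 10 of C1qa, C1qb and C1qc together, at least 1 of Cd4, none of Cd3e, Cd3d or Cd3g, at most 2 of Col3a1 and at most 1 of Cd79a. Another 3698 barcodes met the same limits with no Cd4 UMI and served as the comparison, called Cd4- macrophages below, while the members are called Cd4+ macrophages. These names refer to captured UMIs only, and 1332 of the 2428 members held just 1 Cd4 UMI. A Cd4- barcode can therefore still come from a cell with Cd4 messenger RNA, and the classes need not be separate kinds of cell. The Cd4, C1q, Cd3, Col3a1 and Cd79a levels of the members follow from this choice and are given only as a description.

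The libraries were made from the lamina propria of the colon, the connective tissue beneath the gut epithelium, after enrichment for CD4 cells. The mice were C57BL/6, 10 to 12 weeks old and kept free of specific pathogens, and were either wildtype or carried an alanine substitution in RORgt, the transcription factor of Th17 cells, written S182A in the series text and S203A in the sample titles. Untreated mice drank regular water. DSS mice drank 2% dextran sulfate sodium, which injures the colonic epithelium, for 7 days and plain water for 3 days, and were taken on day 10. Each of the 4 groups (untreated wildtype, untreated mutant, DSS wildtype, DSS mutant) held 2 libraries, described as independent biological replicates. Cells were released by enzymes, layered on Percoll and passed through a CD4 T cell isolation kit, so macrophages were recovered from a preparation aimed at T cells and their numbers do not measure tissue abundance. The labels do not say in which cells the substituted RORgt is made.

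Macrophages of the gut wall sit under the epithelium, engulf dying cells and microbes, and present antigen to CD4 T cells on MHC class II. They make C1q, the starter of the classical complement cascade, and depend on the growth factor receptor Csf1r. Most are replaced from blood monocytes, which lose monocyte genes and gain resident genes as they mature. CD4, the coreceptor of helper T cells, is also made by some macrophages, and in the mouse gut it has been used together with Tim-4, the product of Timd4, to mark long-lived ones.

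The 8 libraries held 34497509 to 46960005 UMIs, and the members' own sums held 761644 to 2642639. Members numbered 484 and 345 in the untreated wildtype libraries, 435 and 199 in the untreated mutant, 204 and 242 in the DSS wildtype and 229 and 290 in the DSS mutant (replicates 1 and 2 in this order throughout). The 2 replicates of a group correlated at 0.941 to 0.973 across 6985 genes and libraries of different groups at 0.900 to 0.973. Both untreated mutant libraries stood apart in heat-shock genes and DSS mutant replicate 2 in Saa3 and fibroblast markers, and DSS mutant replicate 1 in neutrophil markers, with the values given beside those results. No member barcode was shared by 2 libraries. Of the members, 2061 were on the authors' own list of 27420 cells, which holds 60.7% to 97.2% of the members of each library. No Cd4- macrophage was on it.

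The members matched a macrophage label by genes that the choice did not use. Csf1r had a UMI in 80.4% to 95% of members per library, against 0.72% to 3.68% of T cell barcodes. The T cell barcodes were chosen to hold no C1q UMI, which bears on this contrast. Lyz2 (lysozyme) was found in 97.9% to 100% of members, Adgre1 (F4/80) in 60.3% to 87.9%, and the mannose receptor Mrc1 in 73.4% to 87.9%. The MHC class II chain H2-Ab1 was found in 93.8% to 100% of members and in 8.50% to 19.1% of T cell barcodes. Cx3cr1, the fractalkine receptor of gut macrophages, varied more, from 22.8% to 76.6%. The word resident in the label had weaker ground, since Timd4 had 23 UMIs in all and was found in 0% to 2.99% of members per library, Cd163 in 0% to 2.90% and Lyve1 in 0% to 1.45%. The monocyte genes Ccr2 and Ly6c2 were found in 4.96% to 9.28% and 1.03% to 2.32% of members, and Ccr2 was found in 21.0% to 38.9% of T cell barcodes.

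Markers of other cell types were also present. The 12 T cell markers, all detected, summed to 400 to 932 CPM (UMIs per 1000000 UMIs of the summed barcodes) in the untreated and 909 to 1157 in the DSS libraries, against 4793 to 5318 in T cell barcodes. Most of that sum in the members was Ccl5, and without it the 11 other markers summed to 288, 238, 105 and 163 CPM in the untreated and 176, 273, 365 and 146 CPM in the DSS libraries. Trac, the constant chain of the T cell receptor, had a UMI in 0.87% to 4.80% of members and in 50.9% to 61.8% of T cell barcodes. A counted T cell receptor UMI was found in 196 members and 250 Cd4- macrophages. The share holding such a UMI was higher in members in both untreated wildtype libraries and in replicate 2 of untreated mutant and DSS wildtype. It was also higher in DSS mutant replicate 1, at 14.8% of members against 9.52% of Cd4- macrophages. In the remaining libraries it was lower in members, for example 6.55% against 7.48% in DSS mutant replicate 2. Plasma cell markers summed to 546 to 1943 CPM untreated and 629 to 2398 CPM after DSS, against 506 to 1126 and 228 to 952 CPM in T cell barcodes. In the members fibroblast markers summed to 14.0 to 32.2 and 17.1 to 176 CPM, neutrophil markers to 50.6 to 72.0 and 53.8 to 257, and dendritic cell markers to 38.2 to 80.2 and 40.4 to 153. Cpa3, Mcpt2, Fcer1a and Ms4a2 of the mast cell list, Trp63 of squamous epithelium, and S100b and Gfap of glia were at 0. No doublet caller was run, and the part of mixed droplets in the results was not tested, except where values without the barcodes that hold a T cell receptor UMI are given.

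The limits of the choice cut through a continuous range. At the edge, 61 members had exactly 10 C1q UMIs and 50 barcodes with 9 were left out. Of the barcodes that met the gene, mitochondrial, C1q and Cd4 limits, 997 held a Cd3 UMI and were left out. Among those also within the Col3a1 and Cd79a limits, 248 had exactly 1 Cd3 UMI. Of the barcodes without Cd3, 111 were left out by Col3a1, and of those within the Col3a1 limit as well, 47 by Cd79a. Members held 4399 Cd4 UMIs: 1332 members had 1, 1096 had 2 or more, 470 had 3 or more, and the highest had 11. Median C1q UMIs per member were 37, 54, 62 and 51 in the untreated libraries and 23.5, 20.5, 22 and 26 in the DSS libraries.

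Between 35.9% and 44.2% of all C1q macrophages had a Cd4 UMI. With Cd4 read at 1000 UMIs per barcode this share lay higher in the DSS libraries, as did the background share in fibroblast barcodes. Cd4 and C1q chose these barcodes, so the shares are a description with no test. The share with a Cd4 UMI was 38.9% and 35.9% in untreated wildtype, 44.2% and 42.2% in untreated mutant, 42.6% and 37.9% in DSS wildtype and 36.5% and 40.4% in DSS mutant mice. Untreated and DSS libraries overlapped, with means of 40.3% ± 3.64 and 39.3% ± 2.70 (SD, n = 4 each, both genotypes), a difference of -0.93 percentage points. Depth differed between these groups, since median UMIs per member were 4270.5, 5213, 5856 and 5354 untreated and 3676, 2819.5, 3220 and 3834.5 after DSS. With each barcode thinned to 1000 UMIs, which left out 46 barcodes with fewer, the share was 15.7%, 11.4%, 13.7% and 13.9% untreated and 17.9%, 19.4%, 18.2% and 16.8% after DSS. The thinned groups did not overlap, at 13.7% ± 1.76 and 18.1% ± 1.04 (SD, n = 4 each). The C1q and other limits were applied before thinning, so the denominator was still chosen at unequal depth. The C1q level that set the denominator also differed between these groups, as given below.

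In the summed UMIs of all C1q macrophages, Cd4 stood at 167, 145, 162 and 157 CPM untreated and at 220, 198, 187 and 173 CPM after DSS (158 ± 9.46 and 195 ± 19.7, SD, n = 4 each). The groups did not overlap, which held for 22.7% of the 8108 genes tested in the members. These levels are per total UMIs, and on that scale the members' median gene was itself 0.187 (log2) higher after DSS. The part of this shift in the Cd4 level was not tested. The Cd4 level was looked at after the shares had been seen and is given as a description. T cell barcodes held 208 to 254 CPM of Cd4 untreated and 243 to 315 CPM after DSS. As a background, fibroblast barcodes held 3.02 to 8.001 CPM untreated and 7.82 to 12.9 CPM after DSS, and B cell barcodes 2.18 to 3.11 and 5.09 to 13.3 CPM. A Cd4 UMI was found in 1.13% to 2.78% of fibroblast barcodes untreated and 4.78% to 7.32% after DSS, at median depths of 3732 to 7150.5 UMIs, so this background was also higher after DSS. After thinning it was 0.25% to 0.559% untreated and 0.718% to 2.55% after DSS, again without overlap, while 11.4% to 15.7% and 16.8% to 19.4% of macrophages had a Cd4 UMI. In B cell barcodes the thinned share was 0%, 0%, 0.639% and 0.107% untreated and 1.82%, 1.48%, 0.496% and 0.515% after DSS, which overlap. The part of this background in the higher share was not tested.

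**Figure D1:**
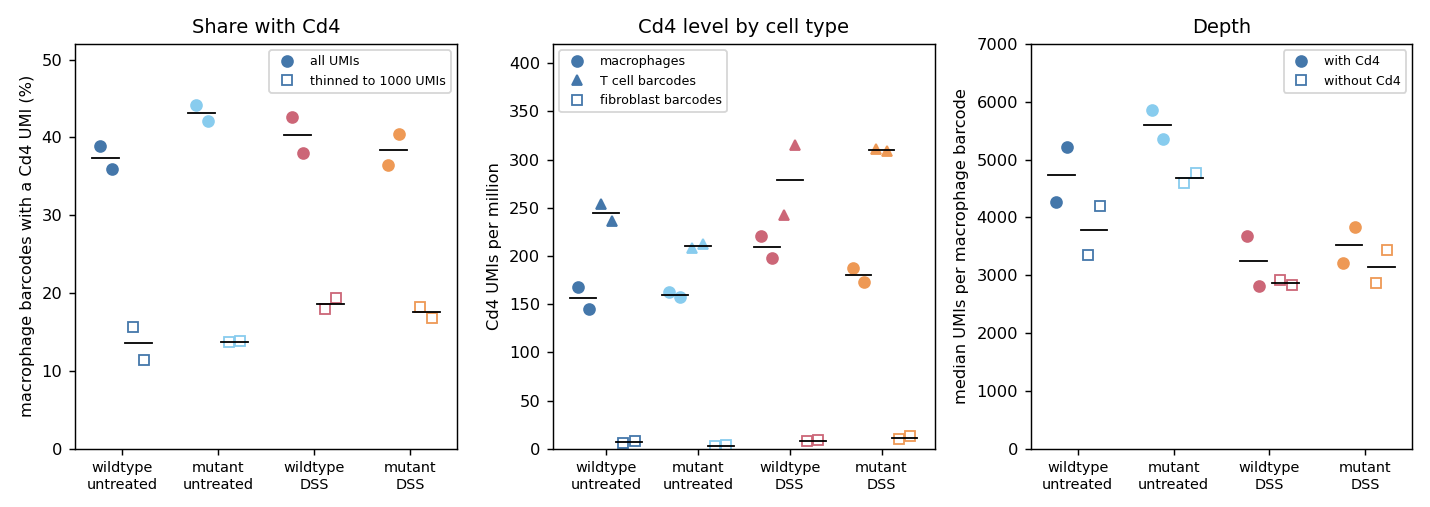
Left, percent of C1q macrophage barcodes with a Cd4 UMI in each library, with all UMIs (filled) and after thinning to 1000 UMIs (open). Middle, Cd4 level in CPM in macrophage, T cell and fibroblast barcodes. Right, median UMIs per barcode in macrophages with and without Cd4. Each point is 1 library, short lines are means of 2 libraries; the thinned share lies at 11.4% to 15.7% in untreated and 16.8% to 19.4% in DSS libraries.

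Recovery of Cd4+ macrophages was lower after DSS in the mean, within the spread of the libraries. They made up 3.65, 2.88, 4.13 and 1.81 of 100 barcodes that passed the gene and mitochondrial limits in untreated libraries and 1.88, 1.80, 1.49 and 2.80 after DSS. The means were 3.12 ± 1.01 and 2.00 ± 0.565 (SD, n = 4 each), and the untreated mutant library with 1.81 lay among the DSS values. In thinned barcodes the difference between the means shrank from -1.12 to -0.17. Genotypes were not compared on these shares.

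The next comparison was between Cd4+ and Cd4- macrophages of the same library. Cd4+ macrophages had lower levels of monocyte genes and higher levels of resident and lysosomal genes. Counts were summed per library and class, and the 2 sums of a library were compared within it (edgeR's quasi-likelihood test, library as a block, Benjamini-Hochberg adjusted over 7529 genes, called at adjusted p under 0.05). Of these genes 1090 were called, 14.5%, with 506 higher in Cd4+ macrophages (6.72%) and 584 lower (7.76%). The median log2 difference over all genes was 0.00428. Leaving aside 3 genes of the choice itself, 1087 calls remained. Cd4+ macrophages were also deeper in 7 of 8 libraries, with 2819.5 to 5856 median UMIs against 2829 to 4777, and in DSS wildtype replicate 2 the medians were 2819.5 and 2829. The median mitochondrial share of UMIs was higher in Cd4+ macrophages in 8 of 8 libraries, at 3.19% to 4.67% against 2.76% to 3.99%, and its part in the differences was not tested. After all barcodes were thinned to 1000 UMIs before the Cd4 limit was applied, 839 of those calls could be tested, 787 of them (93.8%) kept their direction and 198 were called again. After thinning 942 barcodes still held a Cd4 UMI, and the other members of at least 1000 UMIs counted as Cd4-. Calls lost in thinned barcodes thus come with fewer counts and with changed classes, whose parts were not tested.

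Monocyte genes were lower. Of 10 tested genes on the list of monocyte and recent monocyte-derived cells, 8 were lower in Cd4+ macrophages and none higher, with a median log2 difference of -1.07. Plac8, abundant in blood monocytes, had a lowest, median and highest level over the 8 libraries of 7.90, 20.8 and 45.8 CPM in Cd4+ and 40.9, 75.2 and 222 CPM in Cd4- macrophages. It was lower in 8 of 8 libraries (log2 -1.97 ± 0.18 SE, edgeR adjusted p = 4.83e-09). Ccr2, the receptor by which monocytes leave the marrow, stood at 14.9, 24.1 and 36.8 CPM against 29.3, 62.6 and 83.1, lower in 8 of 8 (log2 -1.38 ± 0.15, adjusted p = 2.32e-07). Fn1 (fibronectin) stood at 3.51, 7.89 and 37.4 CPM against 30.9, 60.4 and 86.4 and was lower in 7 of 8 libraries (log2 -2.0 ± 0.27). The ranges of the classes over all libraries overlapped for Plac8, Ccr2 and Fn1, and the difference was within libraries. Clec4e (Mincle), Napsa, Ly6c2, Thbs1 and Itga4 were the other 5, at log2 -1.18, -1.21, -0.97, -0.43 and -0.22. In thinned barcodes 6 of the list were tested and 2 were called lower, with a median of -0.288, and Ccr2 was no longer called (log2 -0.90, adjusted p = 0.0785).

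The other named lower genes were of mixed function. Inhba (activin A) was lower by log2 -1.90, the calcium-binding S100a4 and S100a6 by -1.71 and -1.49, the protease inhibitor Slpi by -1.52, the interferon-induced Ifitm3 by -1.20, and the leukotriene partner Alox5ap by -1.15, each in 8 of 8 libraries. Ifitm3 stood at 97.2, 137 and 217 CPM (lowest, median, highest) in Cd4+ and at 234, 269 and 492 CPM in Cd4- macrophages, so its classes did not overlap. The same held for 0.252% of the 7529 genes tested. Spp1 (osteopontin) was lower by log2 -1.54.

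Long-lived resident genes moved mostly the other way. Of 18 genes on the long-lived resident list 8 passed the filter on low counts; 5 were higher in Cd4+ macrophages and 1, F13a1 (log2 -0.43), was lower, with a median of 0.349. The higher ones were the prostaglandin-degrading Hpgd (0.71), the scavenger receptor Stab1 (0.56), the folate receptor Folr2 (0.50), the bridging ligand Gas6 (0.47) and Mrc1 (0.22). Stab1 stood at 124, 157 and 287 CPM in Cd4+ and 87.6, 104 and 183 CPM in Cd4- macrophages and was higher in 7 of 8 libraries. Timd4, Cd163 and Lyve1 did not pass the filter. With 1 library left out 4 to 6 of the list were called higher and 1 to 3 lower, with medians of 0.176 (without DSS mutant replicate 1) to 0.355 and 3 lower without DSS wildtype replicate 2. With no filter on low counts 5 were higher and 3 lower of 18, with a median of 0.137. Of 18 core macrophage genes 8 were higher and 3 lower: Cx3cr1 (0.63), the tetraspanin Cd81 (0.42) and Ms4a7 (0.31) led the first, and Cd14 (-0.20), Itgam (-0.20) and Tyrobp (-0.14) made up the second. Itgam and Tyrobp were not called when total UMIs replaced TMM scaling.

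Lysosomal and lipid-handling genes were higher in 13 of 24 tested, with only Spp1 lower on that list (median 0.153). Gpnmb, a lysosomal glycoprotein of phagocytes, stood at 106, 262 and 353 CPM in Cd4+ and 44.3, 131 and 180 CPM in Cd4- macrophages, higher in 8 of 8 libraries (log2 0.91 ± 0.07, edgeR adjusted p = 3.60e-10). Apoe, the main lipid carrier of macrophages, was higher by 0.42, the protease Ctsd by 0.37, the acid lipase Lipa by 0.34, Cd63 by 0.28 and the saposin precursor Psap by 0.26. After thinning 7 of 22 were called higher and none lower. Slc40a1 (ferroportin, the iron exporter) was higher by 1.05, and Hmox1, which frees iron from haem, by 0.28. With Lyz2 they were the 3 higher of 14 antimicrobial and oxidative genes, and the acute-phase Saa3 (-1.02) and Acod1 (-0.39), which makes itaconate, were the 2 lower.

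Secreted factors differed in both directions. Ccl8 was the chemokine with the clearest difference, at 916, 1954 and 3548 CPM against 541, 1170 and 1783 CPM, higher in 8 of 8 libraries (log2 0.75 ± 0.05, edgeR adjusted p = 8.24e-12). Igf1 (insulin-like growth factor) stood at 56.9, 70.9 and 93.0 CPM against 37.2, 44.9 and 61.7 CPM, higher in 8 of 8 (log2 0.66 ± 0.08). Cp (ceruloplasmin, a copper-binding ferroxidase), Mmp2 (a gelatinase), the MHC class I-like H2-M2, Sema6d and Fcrls were the other named higher genes, at log2 0.84, 0.80, 0.72, 0.64 and 0.65, and Cp, Sema6d and Fcrls were not called in thinned barcodes. Of 20 cytokine and growth factor genes 6 were higher, namely Igf1, Hgf (0.54), Pdgfc (0.43), Gdf15 (0.36), Tnf (0.28) and Pdgfb (0.23), and 3 were lower, namely Il6 (-0.63), Il1rn (-0.34) and Il1b (-0.19). Of 17 chemokines 6 were higher (Ccl8, Cxcl13 at 0.45, Ccl7 at 0.35, Ccl3 and Ccl4 at 0.30, Cxcl10 at 0.20) and 4 lower (Ccl9 at -0.88, Ccl22 at -0.85, Ccl6 at -0.58, Cxcl2 at -0.20). Il10 was not called (log2 0.11, adjusted p = 0.395), and of 11 genes of its receptor and targets Il1rn alone was.

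Few genes of antigen presentation were called. Of 13 MHC class II genes 2 were, Cd74 (0.12) and Ctss (0.14), with a median of 0.0117, and H2-Ab1 differed by -0.02 (adjusted p = 0.827). Scavenger receptor genes were higher in 5 of 14 and lower in none. Complement genes other than C1q gave 1 higher (Itgax) and 1 lower (Itgam) of 13, and interferon-induced genes 2 higher and 2 lower of 21. The shares called in the MHC class II and complement lists were near the 14.5% of all genes. Of 13 heat-shock genes 9 were higher, by log2 0.12 (Hspa8) to 0.42 (Bag3), and 1 after thinning. Immediate early genes, which respond within minutes to stimuli, gave 3 higher (Jund, Fosb, Atf3) and 2 lower (Nfkbia, Ier3) of 18. With 1 library left out the called genes numbered 4 to 7 higher and 3 to 6 lower for chemokines, 4 to 6 and 2 to 4 for cytokines, 1 to 3 and 1 to 2 for interferon-induced genes, 1 to 3 and 0 to 1 for complement genes, and 7 to 8 and 1 to 3 for core macrophage genes.

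Genes tied to CD4 in T cells were mostly not called. None of the 4 tested of 9 Cd4 partners, a list of its signalling partner, its ligand and its T cell regulators, passed the test. Rora and Ets1, which T cells express at a median of 838 and 1318 CPM, were among the named higher genes (log2 0.76 and 0.66), at medians of 69.95 and 81.8 CPM in Cd4+ and 41.3 and 60.7 CPM in Cd4- macrophages. In thinned barcodes the difference was 0.23 for Rora (adjusted p = 0.707) and -0.06 for Ets1 (adjusted p = 0.935). The costimulator Icos was the only 1 of 7 tested T cell markers called, at 0.59, and at 0.33 (adjusted p = 0.318) without barcodes with a T cell receptor UMI. Inflammatory monocyte markers summed to 30.7 to 127 CPM in Cd4+ and 124 to 426 CPM in Cd4- macrophages. The dendritic cell genes Ccr7 and Ccl22 were lower in Cd4+ macrophages, at log2 -1.03 and -0.85, as were Sdc1 of plasma cells (-1.0) and Dcn of fibroblasts (-0.59). The part of such barcodes among Cd4- macrophages in these differences was not tested.

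**Figure D2:**
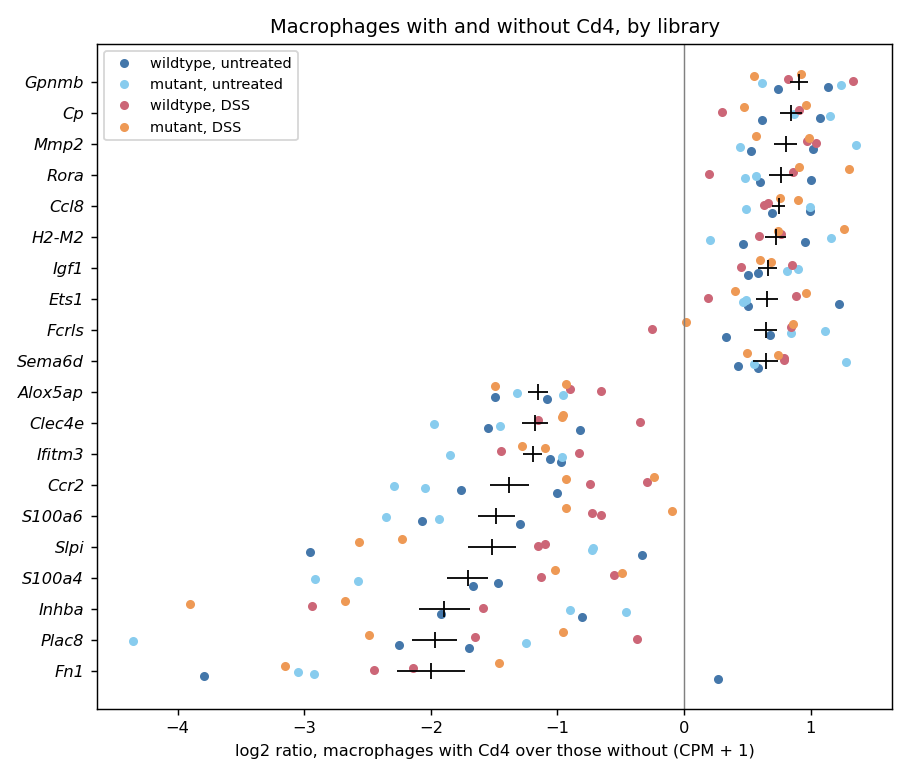
Log2 ratio of CPM + 1 in Cd4+ over Cd4- macrophages of the same library for the 20 named genes. Each point is 1 library, black marks are the fitted log2 difference ± SE; 18 genes lie on 1 side of 0 in all 8 libraries, and Fcrls and Fn1 in 7.

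The DSS comparison asked how Cd4+ macrophages of the inflamed, recovering colon differed from untreated ones, on raw counts summed per library in 1 fit of all 8 libraries (edgeR's quasi-likelihood test, 8108 genes). Averaged over the genotypes, MHC class II genes and core macrophage genes were lower after DSS, while Ptgs2, Vegfa and part of the IL-10 receptor and target genes were higher. Of the genes tested 1250 were called (15.4%), 597 higher (7.36%) and 653 lower (8.05%). The sign was the same in both genotypes for 1248 of them. The call was made on the average of the genotypes, so this follows largely from the call and is no separate support. Called or not, 22.7% of the 8108 genes did not overlap between untreated and DSS libraries. Within wildtype alone this share was 50.9% and within the mutant alone 55.4%. C1qa and C1qb, genes of the choice, were among the calls: summed C1q went from 8876, 10960, 11720 and 10090 CPM to 7383, 7699, 7490 and 7287 CPM, a description only. The members' median mitochondrial share was 3.74%, 3.25%, 3.52% and 3.19% untreated and 4.40%, 4.67%, 4.58% and 4.33% after DSS, without overlap, and its part in the results was not tested. In wildtype alone 19 genes were called (0.234%, 2 higher and 17 lower) and in the mutant alone 572 (7.05%, 262 higher and 310 lower), with 17 in common. At unadjusted p under 0.05 the wildtype comparison gave 1216 genes.

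These calls depend on scaling and on single libraries. Fold changes use TMM scaling, which puts the median gene at 0.00986 (log2), and with total UMIs in its place the median gene was 0.187 higher after DSS and the calls were 1302 higher and 383 lower. Without untreated wildtype replicate 2 there were 242 calls, without DSS wildtype replicate 2 there were 357, without DSS mutant replicate 2 there were 581 and without untreated mutant replicate 1 there were 610.

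The machinery of MHC class II presentation fell. Of 13 genes 8 were lower and 1, the costimulator Cd80 (0.60), was higher, with a median of -0.856. H2-Ab1 stood at 8649 and 9406 CPM in untreated wildtype, 9589 and 9126 in untreated mutant, 6249 and 5268 in DSS wildtype and 5791 and 4397 in DSS mutant libraries. Every DSS library lay below every untreated one (log2 -0.94 ± 0.13 SE, edgeR adjusted p = 0.000986). Cd74, the invariant chain, went from 24440, 27050, 25900 and 26870 CPM to 17870, 13620, 17500 and 10640 CPM (log2 -0.98 ± 0.16), also without overlap. Ciita, the transactivator that drives the class II genes, went from 46.5, 49.5, 109 and 51.8 CPM to 27.8, 18.4, 23.4 and 9.89 CPM (log2 -1.91 ± 0.28, adjusted p = 0.001). H2-DMa (-1.43), H2-DMb2 (-1.19), H2-Eb1 (-0.86), H2-DMb1 (-0.75) and H2-Aa (-0.71) were the others. With any 1 library left out 7 or 8 of the list were called lower, in thinned barcodes 5 of 10, and with total scaling 8 of 13. In wildtype alone none of the 13 was called (5 without either DSS mutant library, which share the fit) and in the mutant alone 7 were (3 to 8 with 1 library left out), with H2-Ab1 at -0.79 and -1.08, and the difference between these was not called (interaction log2 -0.29, adjusted p = 0.999). H2-Ab1 in T cell barcodes moved the same way, from a mean of 405 to 216 CPM, and its part in the result was not tested.

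Core macrophage genes fell as well, with 11 of 18 lower and 1 higher (median -0.586). Ms4a7 (-1.0), Aif1 (-0.99), Cd81 (-0.99), Cx3cr1 (-0.93), the Fc receptor Fcgr1 (-0.92), Lyz2 (-0.71) and Adgre1 (-0.70) were among them. Csf1r (-0.39) and Cd68 (-0.57) were not called with total UMIs in place of TMM, and with single libraries left out 4 to 10 of the list were called lower. Mertk, the receptor that engulfs dying cells, was the gene called higher, at 26.4, 26.1, 27.3 and 24.6 CPM untreated and 53.1, 67.0, 44.1 and 117 CPM after DSS (log2 1.25 ± 0.23, edgeR adjusted p = 0.0045). Of the 18 values 5 were positive, and with total UMIs in place of TMM Cd14 was also called higher (0.65).

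Of the long-lived resident genes 11 of 18 were tested, 5 were lower and none higher (median -0.804). Folr2 stood at 21.4, 85.2, 45.4 and 43.9 CPM untreated and 5.06, 9.19, 12.98 and 14.8 CPM after DSS (log2 -2.45 ± 0.42, edgeR adjusted p = 0.00242), with no overlap. Lyve1 (-2.48) went from 17.3, 27.7, 6.06 and 8.78 CPM to 1.26, 21.0, 0 and 0.82 CPM, and DSS wildtype replicate 2 lay among the untreated libraries. Hpgd (-1.53), Pf4 (-0.80) and Stab1 (-0.51) made up the rest, and with total scaling Stab1 was not called and Gas6 was called higher (0.59). With single libraries left out 2 to 4 were called lower.

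Monocyte genes moved in both directions, with a list median of -0.0878: Clec4e (0.91) and the matrix protein Thbs1 (1.17) were higher, Ly6a (-1.41) lower and 7 of 10 uncalled. Scavenger receptors fell in 3 of 15, led by the fatty acid translocase Cd36 (-1.91), and Mertk rose. Complement genes other than C1q gave 2 lower of 13, Cr1l (-0.87) and Itgb2 (-0.46), the second not called with total scaling, a share near the 15.4% of all genes. Leaving out single libraries gave 0 to 3 monocyte genes higher, 1 to 3 scavenger receptor genes lower and 0 to 3 complement genes lower.

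Secreted factors and their feedback inhibitors rose in part. Ptgs2, the inducible enzyme of prostaglandin synthesis, stood at 288, 167, 117 and 163 CPM untreated and 717, 666, 562 and 705 CPM after DSS (log2 1.71 ± 0.18, edgeR adjusted p = 0.000175), and it was called in each genotype. The wildtype call of Ptgs2 was not kept under every alternative, with log2 changes of 1.12 to 1.89. Vegfa, which drives vessel growth, went from 212, 134, 116 and 150 CPM to 293, 515, 303 and 593 CPM (log2 1.31 ± 0.22, adjusted p = 0.00225). Il1b went from 2774, 2429, 1539 and 2158 CPM to 4061, 3483, 3632 and 3297 CPM (log2 0.54 ± 0.15). DSS libraries lay above all untreated ones for Ptgs2, Vegfa and Il1b. Il6 (1.26), the decoy Il1rn (0.72) and Osm (0.68) were also higher among the 20 cytokine and growth factor genes, and the growth factors Hbegf (-1.61), Pdgfb (-0.57) and Tgfb1 (-0.40) were lower, of which Pdgfb and Tgfb1 were not called with total scaling. With 1 library left out 1 to 6 genes of this list were called higher and 1 to 3 lower, with 1 higher without either untreated wildtype library.

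Il10, the anti-inflammatory cytokine of gut macrophages, was not called over both genotypes (log2 -0.42, edgeR adjusted p = 0.0862), and in the mutant alone it was lower (-0.98, adjusted p = 0.0243). That mutant call was lost in at least 1 of the fits with a single library left out. Of 11 genes of its receptor and targets 5 were higher and none lower (median 0.53): the NF-kB inhibitor Tnfaip3 (1.15), Il1rn, Nfil3 (0.69), Zfp36 (0.64) and the receptor chain Il10rb (0.53). With total scaling 8 were higher (median 0.71), Bcl3, Stat3 and Sbno2 being the additional ones. Tnfaip3 stood at 283, 276, 168 and 293 CPM untreated and 628, 563, 684 and 677 CPM after DSS. With single libraries left out 1 to 7 of the 11 were called higher.

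Chemokines split. Ccl8 fell from 2288, 3548, 2507 and 2587 CPM to 1619, 1419, 1393 and 916 CPM (log2 -1.22 ± 0.17, edgeR adjusted p = 0.001) and Cxcl9, which draws Th1 cells, fell by 1.23 on the log2 scale. Cxcl13, which draws B cells, rose by 2.11, from 8.66, 95.9, 10.6 and 60.6 CPM to 152, 173, 58.4 and 409 CPM, with DSS mutant replicate 1 among the untreated values. Cxcl3 (0.87) and Ccl5 (0.59) were also higher of 18 tested. Interferon-induced genes gave 3 higher (Ifit1 at 1.45, Rsad2 at 1.04, Gbp5 at 1.02) and 4 lower (Psmb8 at -1.21, Ly6e at -0.86, Bst2 at -0.77, Ifitm3 at -0.72) of 21, and 5 higher with total scaling. With 1 library left out 0 to 5 chemokines were called higher and 2 to 4 lower, with none higher without untreated wildtype replicate 1, untreated mutant replicate 1 or DSS wildtype replicate 1. Of the interferon-induced genes 0 to 4 were called higher and 2 to 5 lower, with none higher without untreated wildtype replicate 2.

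Lysosomal and lipid genes gave 4 higher, Abca1 (0.68), Ctsd (0.66), Gpnmb (0.63) and Psap (0.47), and 2 lower, Apoe (-0.83) and Lgals3 (-0.66), of 24. With total scaling 8 were higher and 2 lower, and with 1 library left out 1 to 5 were higher and 1 to 3 lower, with 1 higher without untreated mutant replicate 1 or DSS wildtype replicate 2. Gpnmb, higher in Cd4+ than in Cd4- macrophages, was thus also higher after DSS, whereas Ccl8 and Folr2 were higher in the first comparison and lower in the second. Of 15 antimicrobial and oxidative genes 2 were higher, Saa3 (2.37) and Slc40a1 (1.46), and 4 lower, Ncf4, Lyz2, Cyba and Ftl1, the last not called with total scaling. Saa3 rested on few libraries, at 117, 54.3, 120 and 74.6 CPM untreated and 87.2, 385, 149 and 2371 CPM after DSS. Of the 4 Cd4 partners Runx1 was lower (-0.49), a call lost with total scaling. Immediate early genes gave 3 higher (Zfp36, Dusp1, Junb) and 4 lower (Klf2, Atf3, Jun, Jund) of 18, and 5 higher with total scaling. Leaving out single libraries gave 0 to 4 immediate early genes higher and 3 to 5 lower, and 0 to 2 antimicrobial and oxidative genes higher and 1 to 5 lower.

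Among the named genes, chosen by size among calls without overlap, the glutathione genes Gpx3 (1.79), Gsr (1.58) and Slc7a11 (1.36) and the adhesion molecule Vcam1 (1.32) were higher. Gbp2b fell from 117, 119, 170 and 113 CPM to 24.0, 11.8, 37.7 and 2.47 CPM (log2 -3.05 ± 0.38). Tppp3 fell from 91.6, 90.6, 80.2 and 85.1 CPM to 13.9, 22.3, 18.2 and 18.1 CPM (log2 -2.43 ± 0.18, edgeR adjusted p = 2.99e-06). The transcript AY036118 fell from 1217, 980.1, 1133 and 849 CPM to 306, 264, 232 and 157 CPM (log2 -2.32 ± 0.17, edgeR adjusted p = 2.99e-06). The factor Klf2 fell from 215, 175, 560 and 378 CPM to 49.3, 85.3, 68.8 and 101 CPM (log2 -2.17 ± 0.19). S100a10 (-2.0), Cd36, Apol7c (-1.90), Ifi27 (-1.82) and Plxdc2 (-1.77) were also lower, and Plscr1 and Ptgs2 were the 2 genes called higher in the wildtype comparison. Each DSS library lay outside the untreated range for all of these genes (for Plscr1 within wildtype), which their naming required. Neither wildtype call was kept under every alternative, with log2 changes of 1.02 to 1.61 for Plscr1 and 1.12 to 1.89 for Ptgs2. In wildtype Ccl21a, a chemokine of lymphatic vessels, fell from 88.4 and 73.0 CPM to 0 and 9.19 CPM (log2 -4.28 ± 0.73, edgeR adjusted p = 0.0259). Leaving out any 1 of these 4 libraries ended that call, with edgeR adjusted p up to 0.167, and its level is uncertain because near-identical gene copies can share its reads. Crip1 fell in wildtype from 690 and 954 CPM to 187 and 299 CPM (log2 -1.91 ± 0.25), a call lost without untreated wildtype replicate 2 (edgeR adjusted p = 0.104), without DSS wildtype replicate 1 and in thinned barcodes. In the mutant the arginase Arg2 (2.26) and the protease Adam8 (1.98) were among the named higher genes. Both calls were lost without untreated mutant replicate 1 and without DSS mutant replicate 2 (edgeR adjusted p = 0.179 and 0.187), where the log2 change was 1.41 for Arg2 and 0.92 for Adam8.

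Ctla4, Icos and Ramp3, genes that T cells express strongly, also rose. Ctla4 went from 15.95, 14.4, 6.81 and 16.7 CPM to 32.9, 76.2, 75.3 and 47.0 CPM (log2 2.0 ± 0.30, edgeR adjusted p = 0.00117), with no overlap, while T cell barcodes went from a mean of 584 to 857 CPM and Cd4- macrophages from 11.5 to 38.0 CPM. Without barcodes with a T cell receptor UMI the change was 1.90 for Ctla4 (adjusted p = 0.00578), 1.54 for Icos (adjusted p = 0.00787) and 1.35 for Ramp3 (adjusted p = 0.00364). The part of free T cell RNA in them was not tested. Of 10 tested T cell markers Icos (1.63) and Ccl5 (0.59) were higher and Il7r (-0.92) lower, and 9 of 10 had a positive value (median 0.843). With total scaling Trbc1 (1.31), Trbc2 (1.07) and Thy1 (1.34) were also called higher. Of 5 plasma cell markers Sdc1 (0.94) and Xbp1 (0.42) were higher and all 5 values were positive (median 0.47). The part of T and plasma cell RNA in the DSS results was not tested.

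**Figure D3:**
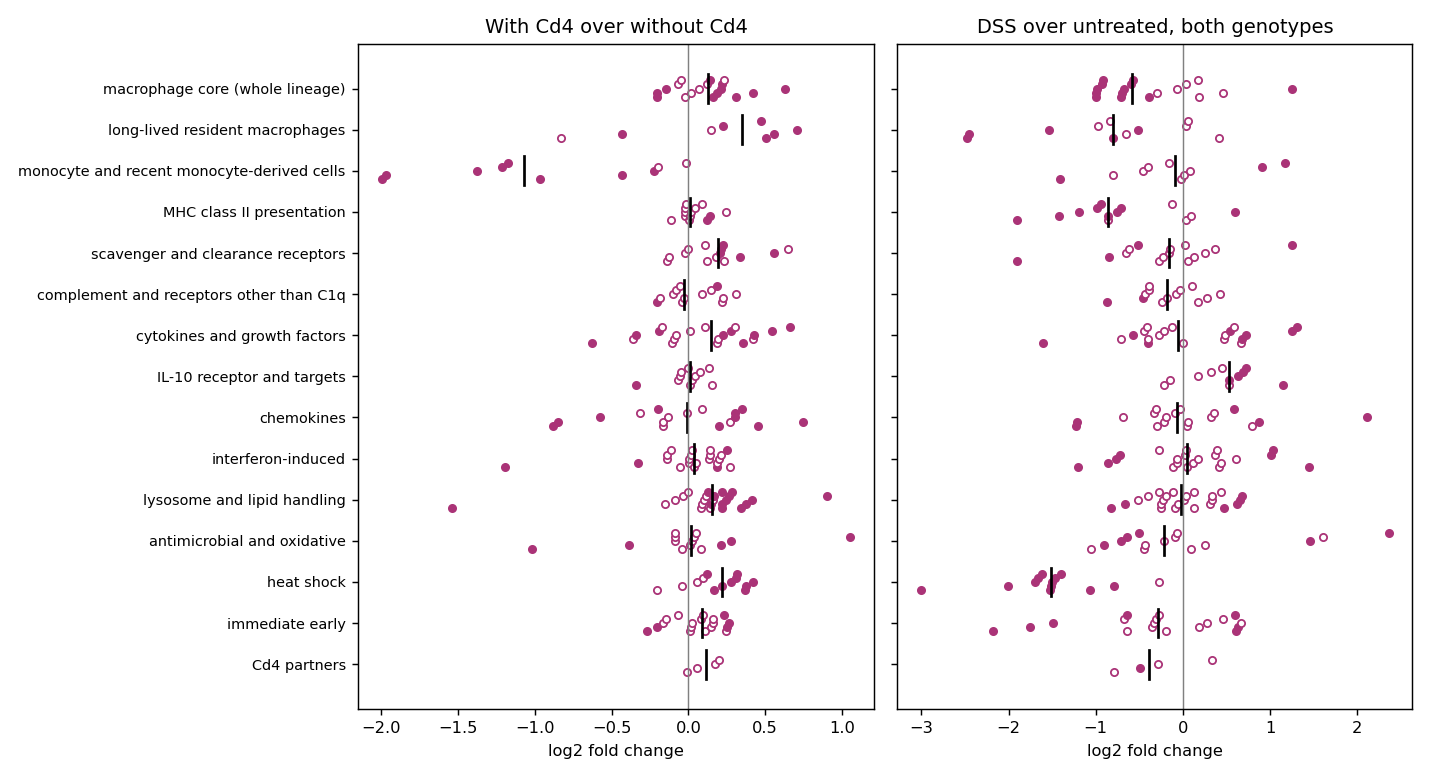
Log2 fold change of each tested gene by list, Cd4+ over Cd4- macrophages (left) and DSS over untreated in Cd4+ macrophages (right). Filled points were called at adjusted p under 0.05, open points were not, and vertical marks are list medians; the monocyte list has a median of -1.07 on the left and the MHC class II and heat-shock lists of -0.856 and -1.51 on the right.

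**Figure D4:**
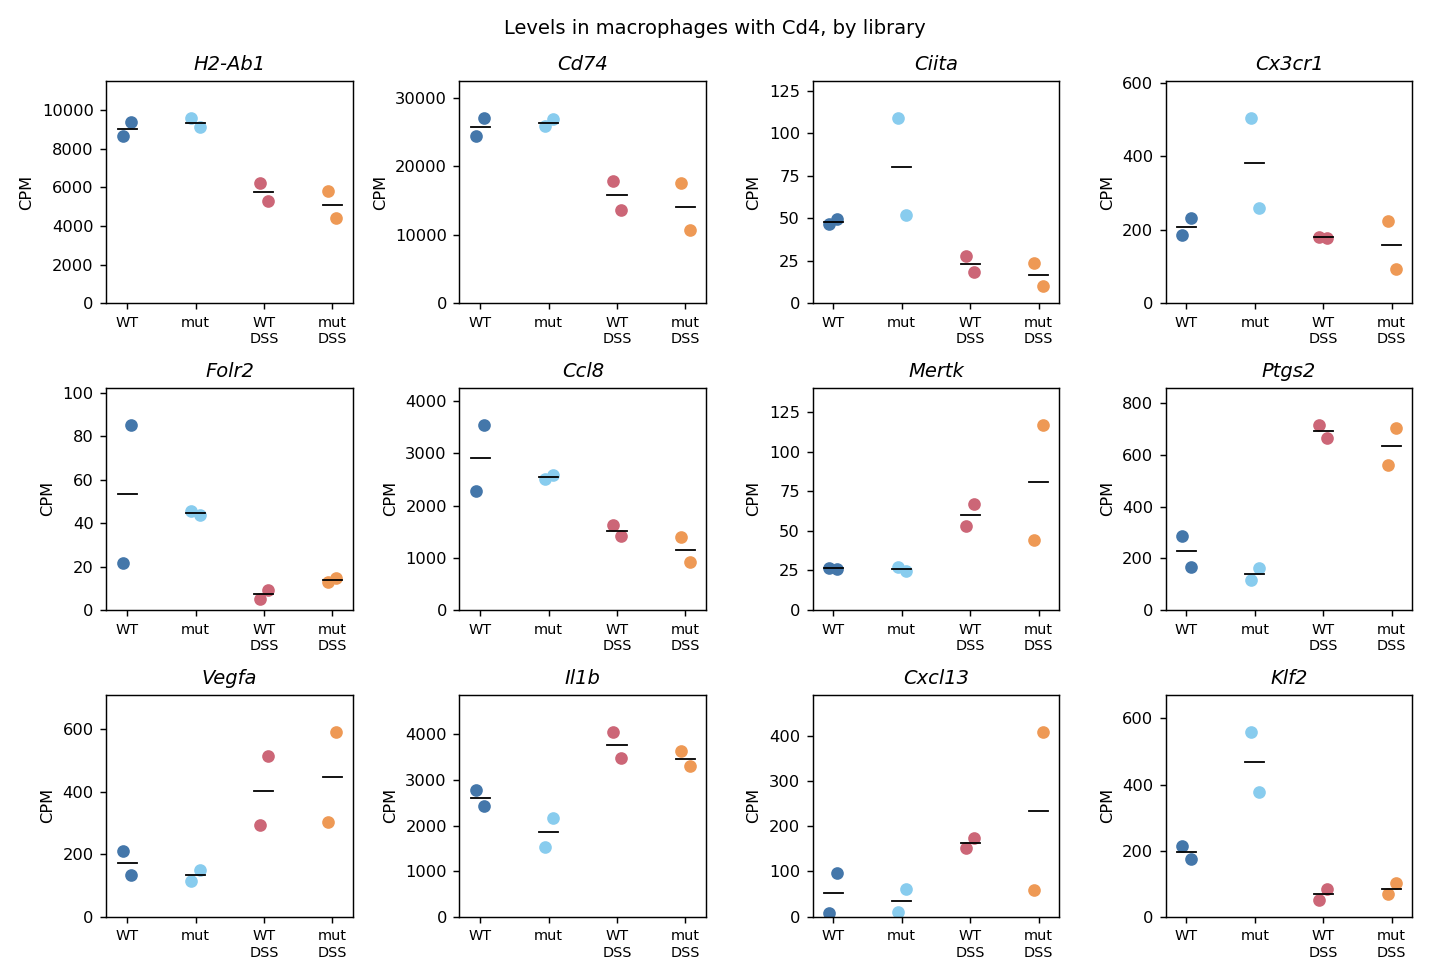
Levels of 12 genes in Cd4+ macrophages in CPM, with 1 point per library and a line at the mean of 2 (WT, wildtype; mut, mutant). H2-Ab1, Cd74, Ciita, Folr2, Ccl8 and Klf2 lie lower in all 4 DSS libraries than in all 4 untreated ones, Mertk, Ptgs2, Vegfa and Il1b lie higher, and Cx3cr1 and Cxcl13 overlap. Of all 8108 genes tested 22.7% did not overlap between untreated and DSS libraries.

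The comparison of mutant with wildtype mice asked whether the RORgt substitution went with a different state of these cells. In untreated mice 4 of 8108 genes were called (0.0493%), all higher in the mutant, with 515 at unadjusted p under 0.05: Hspa1a (log2 2.75 ± 0.40 SE), Dnajb1 (1.90 ± 0.31), Bag3 (1.70 ± 0.28) and Chka (1.37 ± 0.21), each with edgeR adjusted p = 0.0354. The first 3 are chaperones of the heat-shock response or their partners, and Chka is a choline kinase. Hspa1a stood at 415 and 829 CPM in wildtype and 5602 and 2706 CPM in mutant libraries, and Chka at 57.9 and 54.9 against 138 and 150. The genotypes did not overlap for any of the 4 genes, which their naming required. Of all 8108 genes tested 36% did not overlap. Of 13 heat-shock genes 3 were called higher, with a median of 1.33 against 9.22e-05 over all genes. None of the MHC class II, core or long-lived resident genes was called.

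Heat-shock sums were also higher in other cells of the untreated mutant libraries. The 13 heat-shock genes summed to 15280 and 22040 CPM in untreated wildtype and 34240 and 41180 CPM in untreated mutant Cd4+ macrophages, to 13970, 18220, 29450 and 31160 CPM in Cd4- macrophages and to 10350, 15420, 24910 and 25130 CPM in T cell barcodes. After DSS the sums in Cd4+ macrophages were 18520, 11450, 13480 and 11940 CPM. The log2 ratio of mutant to wildtype in untreated T cell barcodes was 2.99 for Hspa1a, 0.997 for Dnajb1, 0.82 for Bag3 and 0.25 for Chka, of which the last 3 were below the members' values, a difference that was not tested. Genotype and any other difference between these 4 libraries cannot be told apart. No gene was called without untreated wildtype replicate 1 or without untreated mutant replicate 1, and 24 were called without untreated mutant replicate 2.

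The heat-shock list was lower after DSS in 12 of 13 genes over both genotypes (median -1.51), and Dnaja1 was the only one of these whose untreated and DSS libraries did not overlap. In wildtype none of the 13 was called (median -0.571, and -1.28 without DSS wildtype replicate 1, -0.913 without untreated wildtype replicate 1, -0.177 without untreated wildtype replicate 2 and 0.0146 without DSS wildtype replicate 2) and in the mutant 12 were (median -2.40), where Hspb1 (-4.82), Hspa1a (-3.53), Hsph1 (-2.83) and Hspa1b (-2.78) led. With 1 library left out 7 to 13 of the list were called lower over both genotypes, with 7 without untreated wildtype replicate 2, and 6 to 12 in the mutant, with 6 without DSS mutant replicate 2. The difference between genotypes was not called for Hspa1a (interaction log2 -3.04 ± 0.55, edgeR adjusted p = 0.448).

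**Figure D5:**
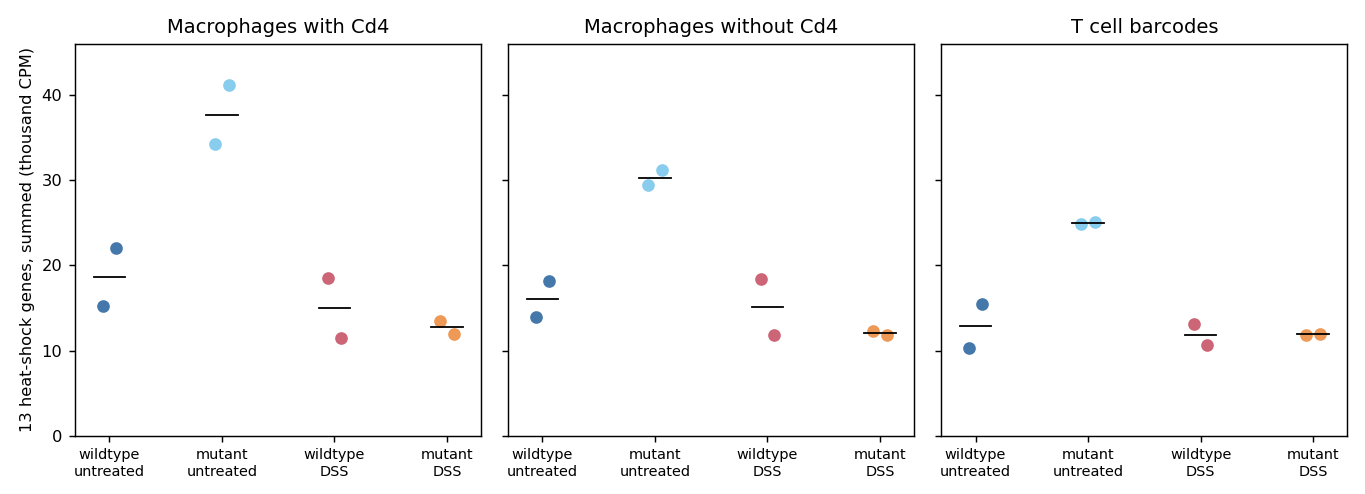
Summed level of 13 heat-shock genes in units of 1000 CPM in Cd4+ macrophages, Cd4- macrophages and T cell barcodes, with 1 point per library and a line at the mean of 2. In each of the 3 panels both untreated mutant libraries lie above all others, at 34240 and 41180 CPM in Cd4+ macrophages.

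After DSS no gene was called between mutant and wildtype (0% of 8108, edgeR, with 200 at unadjusted p under 0.05 and 0 by DESeq2). The genes with the smallest p-values included Dcn, a fibroblast proteoglycan, and S100a8, a neutrophil gene, both higher in the mutant with adjusted p = 0.9998. Plpp3, Igfbp7 and Mdp1 were also among the higher ones. The lower ones were Spsb3 (log2 -1.61, edgeR adjusted p = 0.9998), Itpripl1, Lyve1, Btbd2 and Spdl1. Dcn stood at 10.1 and 6.57 CPM in wildtype and 18.2 and 109 CPM in mutant DSS libraries, and fibroblast markers reached 176 CPM in the second of these. S100a8 stood at 0 and 1.31 CPM in wildtype and 59.7 and 9.07 CPM in mutant DSS libraries, and neutrophil markers summed to 56.9, 53.8, 257 and 79.9 CPM in the same 4 libraries. Whether DSS changed the members differently in the mutant was tested by the interaction, which called no gene either (0%, with 324 at unadjusted p under 0.05, a smallest adjusted p of 0.448, and 0 by DESeq2). The larger number of calls in the mutant than in wildtype is thus not shown to be a difference between the genotypes. Cd36 had 1 of its smallest p-values, with log2 -2.94 after DSS in wildtype and -0.87 in the mutant (interaction 2.07, adjusted p = 0.999), and this value was -0.18 in thinned barcodes.

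Whether DSS acted differently on Cd4+ and Cd4- macrophages was tested within libraries. Of 7529 genes 4 were called (0.0531%), Tmsb10, S100a6, Ccl5 and Mir155hg, all with a higher DSS effect (DSS minus untreated, log2) in Cd4+ than in Cd4- macrophages. The other DSS changes above are therefore not shown to be particular to Cd4+ macrophages. In Cd4- macrophages the log2 ratio of mean DSS to mean untreated CPM was -0.76 for H2-Ab1, -1.45 for Ciita, 1.69 for Ptgs2, 1.5 for Vegfa, 1.55 for Mertk and -1.96 for Folr2.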

How the data were processed

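Single-cell libraries were made with a 3' droplet method from about 10000 loaded cells each, per the labels' protocols. The submitters' processing notes name Cell Ranger 3.1.0, Seurat 4.0.1 and the mouse build mm10. The authors deposited 1 table of raw UMI counts per library, and the file headers name no filter. In 7 tables rows carry numbers, and a deposited symbol list of 31053 rows gave their order; 98.5% of 30934 identifiers in the remaining table had the symbol of their row. The deposited cell list was used only to count members on it and as an alternative.

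The members and the gene lists were chosen with earlier results of these data known. Counts of the chosen barcodes were summed per library. Groups came from the sample titles, and the 2 replicates of a group carry different animal numbers. Tests used edgeR 4.0.16 in R 4.3.3 (TMM, filterByExpr, quasi-likelihood, Benjamini-Hochberg over all genes tested, threshold 0.05). The code was tried on simulated counts with a fixed spread and no difference between libraries beyond depth and the set changes. Such counts cannot check the library block or the spread between mice. Cd4+ and Cd4- sums of 1 library come from the same mouse, so library was a block there. Named genes were called, had at least 50 CPM in the higher group, did not overlap between groups (or moved the same way in at least 7 of 8 libraries within libraries) and were the up to 10 largest in each direction. For the difference of DSS effects between Cd4+ and Cd4- macrophages no CPM limit was set. Left out of the naming were genes of the choice, unnamed gene models, and immunoglobulin, T cell receptor, mitochondrial, ribosomal protein and sex-linked genes. Where nothing was called, the genes with the 5 smallest p-values in each direction were looked at, and for the interaction only some are given. CPM are UMIs per 1000000 summed UMIs and fold changes are TMM-scaled. T cell barcodes had at least 2 Cd3 UMIs, fibroblast barcodes at least 5 Col3a1 UMIs and B cell barcodes at least 3 Cd79a UMIs. All of them had no C1q UMI, and fibroblast and B cell barcodes had no Cd3 UMI. T and B cell barcodes had at most 2 Col3a1 UMIs, and T cell and fibroblast barcodes at most 1 Cd79a UMI. An exact permutation test of the shares was planned, but they are given without it because Cd4 and C1q chose the barcodes. Alternatives were DESeq2 1.42.0, no filter on low counts, at least 2 Cd4 or 20 C1q UMIs, thinning to 1000 UMIs, leaving out barcodes with a T cell receptor UMI, only listed cells, only the groups compared, and each library left out; scaling by total UMIs was added after the data had been seen. Thinned barcodes were drawn once, and only the Cd4 limit was applied to the thinned counts, which left 942 Cd4+ barcodes. Libraries of 34497509 to 46960005 UMIs limit low genes, and counting error is only part of the spread between 2 mice.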

Additional observations from a re-analysis of the deposited data

Results flagged for a closer look

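DSS effects of 4 genes differed between Cd4+ and Cd4- macrophages of the same libraries in a test of the difference itself (edgeR's quasi-likelihood test, library as a block, adjusted over 7529 genes). Tmsb10 (thymosin beta 10, which binds actin monomers) had a difference of 0.94 on the log2 scale (adjusted p = 0.000822). The mean log2 ratio of Cd4+ to Cd4- macrophages was -1.11 ± 0.22 in untreated and -0.16 ± 0.23 in DSS libraries (SD, n = 4 each). S100a6 (a calcium-binding protein) had a difference of 1.31 (adjusted p = 0.000822), with ratios of -1.91 ± 0.44 and -0.60 ± 0.36. The levels of S100a6 in Cd4- macrophages were 236, 410, 267 and 367 CPM untreated and 80.0, 123, 137 and 116 CPM after DSS, and in Cd4+ macrophages 95.3, 96.9, 69.2 and 71.1 CPM and 50.6, 73.5, 129 and 60.2 CPM.

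Ccl5, a chemokine that T cells also make, had a difference of 0.85 (edgeR adjusted p = 0.0126), with ratios of -0.72 ± 0.49 and 0.14 ± 0.30. Mir155hg, the host transcript of microRNA 155, had a difference of 1.88 (edgeR adjusted p = 0.0398), with ratios of -0.85 ± 0.30 and 0.83 ± 0.82. Its levels were low, at 6.05 to 20.2 CPM untreated and 5.77 to 26.0 CPM after DSS in Cd4+ macrophages. Inflammatory monocyte markers summed to 181 to 426 CPM untreated and 124 to 356 CPM after DSS in Cd4- macrophages, which overlap, and their part in these differences was not tested. In thinned barcodes Mir155hg could not be tested and the other 3 were not called. Without barcodes with a T cell receptor UMI Tmsb10 was not called (0.78) and the other 3 were, and with 2 or more Cd4 UMIs Ccl5 and Mir155hg were not. With DESeq2 2 of the 4 calls were lost, and with 20 or more C1q UMIs 1 was. Leaving out DSS mutant replicate 1 or DSS wildtype replicate 2 ended 2 calls. Leaving out DSS mutant replicate 2 or untreated wildtype replicate 2 ended 1.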

How the results depend on the processing

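Counts of called genes moved with the processing. For DSS in wildtype the 19 calls became 61 with DESeq2, 246 without a filter on low counts, 1 in thinned barcodes, 36 on listed cells, 94 with only the groups compared and 32 with total UMIs in place of TMM (17 higher and 15 lower), and 3 to 68 with 1 library left out. For DSS in the mutant the 572 calls became 312, 995, 60 in thinned barcodes, 311 with 2 or more Cd4 UMIs, 378 with 20 or more C1q UMIs, 85 with only the groups compared and 976 with total UMIs (788 higher and 188 lower), and 60 to 629 with 1 library left out. For both genotypes the 1250 became 634 with DESeq2, 697 with 2 or more Cd4 UMIs, 194 in thinned barcodes and 242 to 1317 with 1 library left out; only the groups compared is the same fit. For mutant against wildtype untreated the 4 became 93 without a filter, 8 with 2 or more Cd4 UMIs, 8 on listed cells, 10 with only the groups compared and 0 to 24 with 1 library left out. After DSS the 0 became 22 without a filter and 0 to 8 with 1 left out, and the interaction 47, 2 in thinned barcodes and 0 to 4. Cd4+ against Cd4- gave 520 with DESeq2, 217 in thinned barcodes and 837 to 1031 with 1 library left out. The 4 genes with unequal DSS effects became 2 with DESeq2, 51 without a filter, 0 in thinned barcodes and 2 to 33. The cause of these shifts was not tested.

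Without the library as a replicate block, Cd4+ against Cd4- gave 29 calls in place of 1090, and the difference of DSS effects gave 0. No paired fit between mice was run. The replicate numbers follow accession order, and although each wildtype mouse has a mutant of the same treatment with a neighbouring animal number in the titles, the labels do not say that such mice share a litter, batch or day.

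The DSS difference in the share with Cd4 changed sign from -0.93 to 1.24 with 20 or more C1q UMIs and to 4.42 in thinned barcodes, and with 1 library left out it ran from -2.39 to 0.365, turning positive (0.365) without untreated mutant replicate 1 and (0.0286) without DSS mutant replicate 1. Members per 100 barcodes differed by -1.56 to -0.785 with 1 library left out, by -0.17 in thinned barcodes and by -0.635 with 2 or more Cd4 UMIs. Ets1 in thinned barcodes (-0.0631, Cd4+ against Cd4-) and Cd36 (-0.18, interaction) also changed sign. Of the named genes over both genotypes, 304 of their values under alternatives kept direction and call and 12 lost the call; the same counts were 154 and 46 for DSS in wildtype, 295 and 34 for DSS in the mutant, 54 and 14 for the untreated genotypes, 302 and 12 for Cd4+ against Cd4- and 44 and 19 for the difference of DSS effects. For DSS in wildtype 10 named genes lost the call without DSS wildtype replicate 1. The 12 over both genotypes include Gab1, Ifit1 and Ramp3 without untreated wildtype replicate 2.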
